A study of Rattus norvegicus with 13 samples.

Results

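Calcineurin is the calcium-dependent protein phosphatase of the heart, and its transcripts were followed here together with those of its Rcan inhibitors in left ventricle of pregnant rats. The set held 5 genes of the 14217 genes that probe sets with a single gene symbol read on these arrays. They were the inhibitors Rcan1 and Rcan2, the catalytic subunits Ppp3ca and Ppp3cb, and the regulatory subunit Ppp3r1. Together they were read by 12 of the 31042 probe sets compared, a probe set being a group of short probes that reads 1 transcript. The set was picked because Rcan1 had been higher in methionine-fed hearts, so Rcan1 was given no test, and the difference of the set between methionine-fed and control hearts is a description only.

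Hearts came from female Sprague Dawley rats, all pregnant and all on standard chow, in 3 groups. In the L-NAME group (4 arrays) the drinking water held L-NAME, an inhibitor of NO synthase, at 1 g/L. In the Met-fed group (4 arrays) it held L-methionine at 9 g/L, which raises homocysteine, and in the control group (5 arrays) it held neither. By the labels, both treatments ran over days 1 to 20 of gestation and hearts were taken on day 20 or 21, with no parity given. The paper describes rats mated 3 to 4 times, with 4 control and 4 Met-fed arrays and no L-NAME arrays, and which control arrays it used is not stated, so none was left out. The labels number the samples without saying that each is a separate animal, so p-values measure the spread between these samples. The platform was Affymetrix rat genome arrays, and the values were MAS5 signals, used here on the log2 scale.

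When calcium rises in a cardiac myocyte, calcium-loaded calmodulin binds calcineurin and frees the active site of its catalytic subunit, which works only together with the regulatory calcium-binding subunit. Calcineurin then removes phosphates from NFAT transcription factors, which move into the nucleus, and this pathway is known for driving growth of the heart muscle. Rcan proteins bind calcineurin and restrain it, and a short Rcan1 transcript, started from a promoter inside the gene, is itself an NFAT target and is widely read as a gauge of calcineurin activity.

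The RefSeq promoter of Rcan1 in the rat assembly GRCr8 lies inside the gene, and it is shown beside that of Rcan2 so that both inhibitors can be compared. The window of 300 bases runs from 250 bases before the start of the transcript to 50 bases after it. For Rcan1 it spans chr11:45118187-45118486 on the minus strand, and its start site lies 69.8 kb inside the upstream end of the gene. For Rcan2 it spans chr9:24672140-24672439 on the minus strand, and its start site lies 2.0 kb inside the upstream end of the gene. The start sites of Ppp3ca, Ppp3cb and Ppp3r1 also lie inside their genes, by 0.55, 0.08 and 11.5 kb. Capitals mark matches on either strand to 4 motifs, GGAAA (the core that NFAT factors bind), TGACTCA (bound by AP-1), TGACGTCA (bound by CREB and its relatives) and TATAAA (the TATA box).
Rcan1: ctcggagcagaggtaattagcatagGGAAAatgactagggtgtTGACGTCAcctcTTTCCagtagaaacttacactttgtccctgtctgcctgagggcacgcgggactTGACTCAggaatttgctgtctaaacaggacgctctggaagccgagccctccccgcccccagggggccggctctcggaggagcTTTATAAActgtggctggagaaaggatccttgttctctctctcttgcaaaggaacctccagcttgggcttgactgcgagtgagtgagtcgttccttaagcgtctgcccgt
Rcan2: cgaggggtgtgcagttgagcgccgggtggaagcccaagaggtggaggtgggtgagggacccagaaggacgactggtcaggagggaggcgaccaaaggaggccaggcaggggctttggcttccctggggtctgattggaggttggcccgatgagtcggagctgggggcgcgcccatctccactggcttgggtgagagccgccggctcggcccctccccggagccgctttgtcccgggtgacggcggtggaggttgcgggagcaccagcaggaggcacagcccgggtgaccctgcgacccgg
The Rcan1 window held GGAAA 225 bases before the start and its reverse complement 195 bases before it, with TGACGTCA between them at 207 bases and TGACTCA at 142 bases. TATAAA was found 58 bases before the start and, overlapping it on the other strand, 60 bases before it. The Rcan2 window held none of the 4 motifs and was richer in G and C, at 70% against 54.7% for Rcan1. The Ppp3ca window held none either, and those of Ppp3cb and Ppp3r1 held 1 GGAAA each. Among 33465 RefSeq promoters of this length, 62.7% held GGAAA, 28.5% held it at least as often as Rcan1, 14.2% held TATAAA, 4.63% held TGACTCA and 1.83% held TGACGTCA. The motifs were chosen after the sequence was seen, a match is a run of letters and not a measured binding site, and which Rcan1 transcript the probe set reads is not given in the sources used here.

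The L-NAME arrays stood apart from the rest as a group. The median signal of an array was 34.2 to 36.9 on L-NAME arrays, 25.8 to 29.2 on Met-fed arrays and 25.7 to 27.2 on control arrays, although the trimmed mean was 150 on each. The log2 ratio of 3′ to 5′ signal for actin, a gauge of RNA integrity and labelling, was 2.32 to 2.70 on L-NAME arrays, 3.32 to 3.71 on Met-fed arrays and 3.31 to 3.67 on control arrays. Markers bore out the tissue label as far as heart muscle, with Myh6 and Tnnt2 above 99.9% of all probe sets. Even so, all 5 cardiomyocyte markers measured were lower in L-NAME than in control hearts at adjusted p under 0.05 (median log2 change -0.62), with summed signals of 11654 to 13666 in L-NAME, 14619 to 20757 in Met-fed and 18185 to 19995 in control hearts. All 4 endothelial markers were lower too (median -0.52), with sums of 3477 to 3949 in L-NAME, 4461 to 5229 in Met-fed and 4943 to 5766 in control hearts. After quantile normalization 2 of the 5 and 3 of the 4 passed as lower. Smooth muscle markers had 2 of 4 higher and 1 lower, and leukocyte markers 1 of 4 higher and 3 lower. Fibroblast markers had 0 of 4 higher and 2 lower, and skeletal muscle and blood markers 1 lower each. Of the atrial, adipocyte and neuron markers 0 passed. Sums of the 4 atrial markers ran from 1300.5 to 3841 in L-NAME, 1361 to 6634 in Met-fed and 1020 to 2372 in control hearts. How much atrial tissue each sample held was not tested. After quantile normalization 2 of the 4 fibroblast markers were higher and 2 lower, and 1 blood marker was higher and 0 lower. As deposited, 45.7% of all probe sets passed between L-NAME and control, 28.7% higher and 17% lower. In pieces of whole ventricle, fewer cells of a type and less RNA per cell cannot be told apart. The median log2 change of all probe sets between L-NAME and control was 0.22 as deposited, -0.01 after quantile normalization and -0.21 after centring each array on its median. Between Met-fed and control it was 0.004, 0.005 and -0.05. What part these differences between arrays have in the L-NAME results was not tested.

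Rcan1, of which NFAT induces a short transcript, had more signal in L-NAME hearts than in any control heart and more in most Met-fed hearts. It was read by 1 probe set (1388686_at), whose MAS5 signal was 371.0, 342.9, 443.8 and 589.5 in the L-NAME hearts, 509.0, 318.4, 205.1 and 315.5 in the Met-fed hearts and 197.6, 114.5, 179.8, 167.6 and 244.5 in the control hearts. Every L-NAME heart was above every control heart, and L-NAME and control did not overlap on 40.3% of all probe sets in either direction. Of the 4 Met-fed hearts, 3 were above every control and Met-fed replicate 3 was below control replicate 5. On the log2 scale the means were 8.74 ± 0.35 in L-NAME, 8.32 ± 0.54 in Met-fed and 7.46 ± 0.40 in control hearts (SD, n = 4, 4 and 5).

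The log2 change of Rcan1 was 1.28 ± 0.24 between L-NAME and control (SE), a 2.43-fold higher level, and 0.87 ± 0.24 between Met-fed and control, a 1.82-fold higher level. Between L-NAME and Met-fed hearts it was 0.42 ± 0.25, with overlapping groups, and this value was unsteady. It was 0.36 after quantile normalization, 0.049 after median centring, 0.20 without Met-fed replicate 3, 0.26 without L-NAME replicate 4 and 0.64 without Met-fed replicate 1. These comparisons share arrays, and since Rcan1 was chosen by the Met-fed difference its changes carry no p-value. Both changes from control kept their sign under each scaling. For L-NAME against control the change was 1.20 after quantile normalization and 0.86 after median centring, and for Met-fed against control it was 0.83 and 0.81. Single arrays mattered more for the Met-fed hearts. The change there was 0.64 without Met-fed replicate 1, the highest of the group, and 1.08 without Met-fed replicate 3, the lowest. Among the Met-fed arrays the median signal of all probe sets was also highest on replicate 1, at 29.2. Met-fed replicate 4 was close, at 29.0, with an Rcan1 signal of 315.5. What part the median signal had in the Rcan1 values was not tested. Leaving out 1 array at a time gave 1.13 to 1.40 for L-NAME against control.

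Rcan2, an inhibitor of the same family expressed in heart and brain, stayed close to control in both treated groups at the deposited scaling. Its brighter probe set (1389066_at) read 10.50, 10.55, 10.73 and 10.56 on the log2 scale in L-NAME hearts, 10.21, 10.77, 10.82 and 10.57 in Met-fed hearts and 10.52, 10.69, 10.52, 10.57 and 10.52 in control hearts. The 3 groups overlapped. The Met-fed hearts were spread more widely, with 2 of 4 above every control heart and 1 below every control heart. Its change between L-NAME and control was 0.02 ± 0.10, with a 95% interval of -0.20 to 0.24 (limma, adjusted p = 0.887, and p = 0.603 in the 2-sided exact permutation test), and this call depended on the scaling, with 0.35 after quantile normalization (adjusted p = 0.0011) and -0.40 after median centring (adjusted p = 0.017). For Met-fed against control it was 0.03 ± 0.10.

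The other Rcan2 probe set (1374235_at) read 9.36, 8.88, 9.16 and 8.96 in L-NAME hearts, 8.64, 9.13, 9.33 and 9.17 in Met-fed hearts and 9.16, 9.27, 9.44, 9.15 and 9.39 in control hearts. The groups overlapped here too. Its change was -0.19 ± 0.13 between L-NAME and control (adjusted p = 0.257, exact permutation p = 0.143), which passed the threshold only after median centring (-0.61, adjusted p = 0.0031), and -0.21 ± 0.13 between Met-fed and control. Neither Rcan2 probe set had a change near the 1.28 and 0.87 of Rcan1. Since Rcan1 was picked by its Met-fed change and both changes share the control arrays, this contrast follows in part from the choice.

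**Figure D1:**
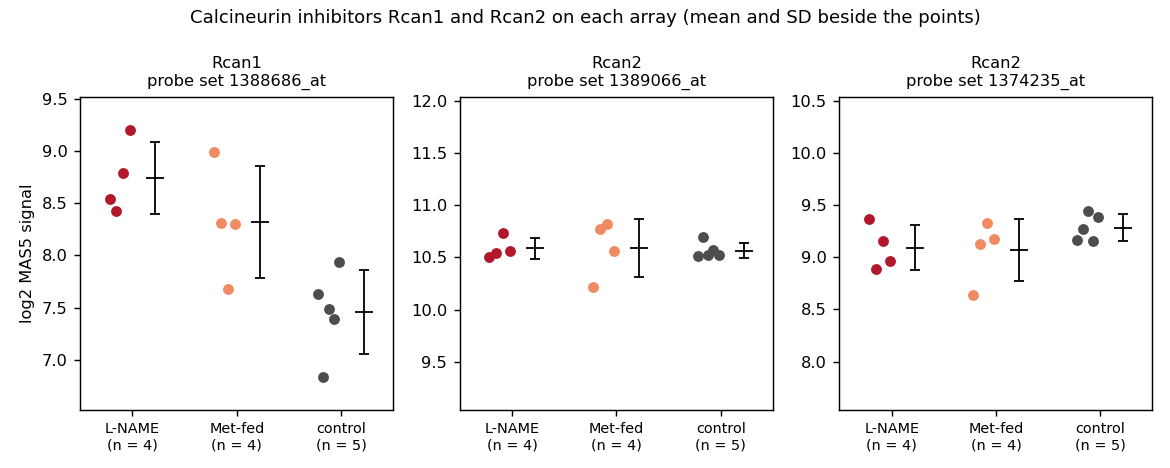
Log2 MAS5 signal of the Rcan1 probe set and both Rcan2 probe sets on each array (points) in L-NAME, Met-fed and control hearts, with group means and SD. Rcan1 was higher on all 4 L-NAME arrays than on any control array and overlapped between Met-fed and control, while both Rcan2 probe sets overlapped between all groups.

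Ppp3ca encodes the alpha form of the catalytic subunit, and its bright probe sets were lower in L-NAME hearts and near control in Met-fed hearts. On 1373479_at the log2 signal was 9.39, 9.54, 9.45 and 9.42 in L-NAME hearts, 10.60, 10.77, 10.75 and 10.57 in Met-fed hearts and 10.89, 10.62, 10.67, 10.69 and 10.68 in control hearts. The L-NAME hearts lay more than 1 log2 unit below every other heart. The change between L-NAME and control was -1.26 ± 0.07, so the level was 2.39-fold lower (adjusted p = 4.67e-09). The exact permutation p was 0.0159, the smallest that 4 against 5 arrays allow. The fall passed the threshold under each scaling, at -1.08 after quantile normalization and -1.68 after median centring. In Met-fed hearts the change from control was -0.04 ± 0.07.

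On a second bright Ppp3ca probe set, 1368277_at, the log2 signal was 9.95, 10.19, 10.04 and 9.99 in L-NAME hearts, 10.34, 10.35, 10.36 and 10.43 in Met-fed hearts and 10.28, 10.41, 10.30, 10.45 and 10.48 in control hearts. The L-NAME hearts were again below all others, but by less. The change between L-NAME and control was -0.34 ± 0.07 (adjusted p = 0.000618, exact permutation p = 0.0159), a call that was lost after quantile normalization (-0.12, adjusted p = 0.192). The Met-fed change from control was -0.01 ± 0.07. The Ppp3ca probe set 1398506_at was dim, with more signal than each of 27 bacterial control probe sets on 7 of 13 arrays (4 L-NAME, 2 Met-fed and 1 control). Its change of 1.72 ± 0.69 between L-NAME and control did not pass the threshold (adjusted p = 0.0506, exact permutation p = 0.0476). It passed in 7 of 21 alternatives. Between Met-fed and control its change was 0.63 ± 0.69. The other 11 probe sets of the 5 genes were above the bacterial controls on all 13 arrays.

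Ppp3cb encodes the beta form of the catalytic subunit, which is required in mouse for the heart to grow fully under pressure load. Its 3 probe sets moved in different directions in L-NAME hearts. The dimmest of them, 1387261_at, read 7.81, 7.40, 7.60 and 7.46 in L-NAME hearts, 6.30, 6.07, 5.90 and 6.06 in Met-fed hearts and 5.81, 5.86, 5.83, 5.67 and 5.40 in control hearts. The 3 groups did not overlap with each other. The change between L-NAME and control was 1.86 ± 0.14, a 3.62-fold higher level (adjusted p = 4.69e-08, exact permutation p = 0.0159), and it passed the threshold at 1.63 after quantile normalization and 1.43 after median centring. The Met-fed hearts differed from control by 0.37 ± 0.14.

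The brightest Ppp3cb probe set, 1375882_at, read 10.13, 10.09, 10.19 and 10.05 in L-NAME hearts, 10.23, 10.47, 10.45 and 10.34 in Met-fed hearts and 10.52, 10.38, 10.50, 10.34 and 10.33 in control hearts. Here every L-NAME heart was below every other heart. The change of -0.30 ± 0.07 between L-NAME and control passed the threshold (adjusted p = 0.00236, exact permutation p = 0.0159) but not after quantile normalization (-0.07, adjusted p = 0.386). The remaining probe set, 1379314_at, read 8.64, 8.62, 8.45 and 8.44 in L-NAME hearts, 7.97, 8.12, 8.24 and 8.28 in Met-fed hearts and 8.17, 8.13, 8.24, 7.70 and 7.84 in control hearts. Every L-NAME heart was above every other heart on it. Its change of 0.52 ± 0.12 between L-NAME and control passed (adjusted p = 0.00153, exact permutation p = 0.0159) but not after median centring (0.10, adjusted p = 0.566). Met-fed changes from control were -0.04 ± 0.07 on 1375882_at and 0.14 ± 0.12 on 1379314_at. For Ppp3cb no direction of the gene as a whole is given between L-NAME and control, since its probe sets disagreed. None is given for Ppp3ca either. Its bright probe sets were both lower, but by unlike amounts (-1.26 and -0.34), and its dim probe set was higher without passing. The parts of the transcripts that the probe sets of both genes read are not given in the sources used here.

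Ppp3r1 encodes the regulatory subunit that holds the calcium sites of the enzyme. Its brightest probe set, 1372982_at, read 9.62, 9.78, 9.67 and 9.48 in L-NAME hearts, 9.17, 8.88, 8.83 and 9.14 in Met-fed hearts and 9.00, 9.51, 8.86, 9.09 and 8.97 in control hearts. Only control replicate 2 reached into the L-NAME range. The change between L-NAME and control was 0.55 ± 0.12 (adjusted p = 0.00125, exact permutation p = 0.0317), a call lost after median centring (0.13, adjusted p = 0.391). Against control, the Met-fed change was -0.08 ± 0.12.

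On 1369152_at, a dimmer probe set of Ppp3r1, the log2 signal was 4.22, 4.38, 4.70 and 4.09 in L-NAME hearts, 4.02, 3.78, 3.47 and 3.10 in Met-fed hearts and 2.81, 4.18, 3.88, 3.25 and 3.41 in control hearts. The L-NAME hearts lay at the upper end and overlapped with control replicate 2. Its change of 0.84 ± 0.30 passed narrowly (adjusted p = 0.0325, exact permutation p = 0.0317) and was lost in 10 of 21 alternatives, with 0.36 after quantile normalization and 0.42 after median centring. The last probe set, 1391213_at, read 4.67, 5.07, 4.97 and 5.25 in L-NAME hearts, 5.13, 4.87, 5.29 and 4.71 in Met-fed hearts and 4.53, 4.64, 4.32, 5.19 and 4.52 in control hearts. These groups overlapped. Its change of 0.35 ± 0.21 between L-NAME and control did not pass (adjusted p = 0.197, exact permutation p = 0.127) and turned to -0.086 after quantile normalization and -0.073 after median centring. In Met-fed hearts the changes from control were 0.09 ± 0.30 on 1369152_at and 0.36 ± 0.21 on 1391213_at.

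**Figure D2:**
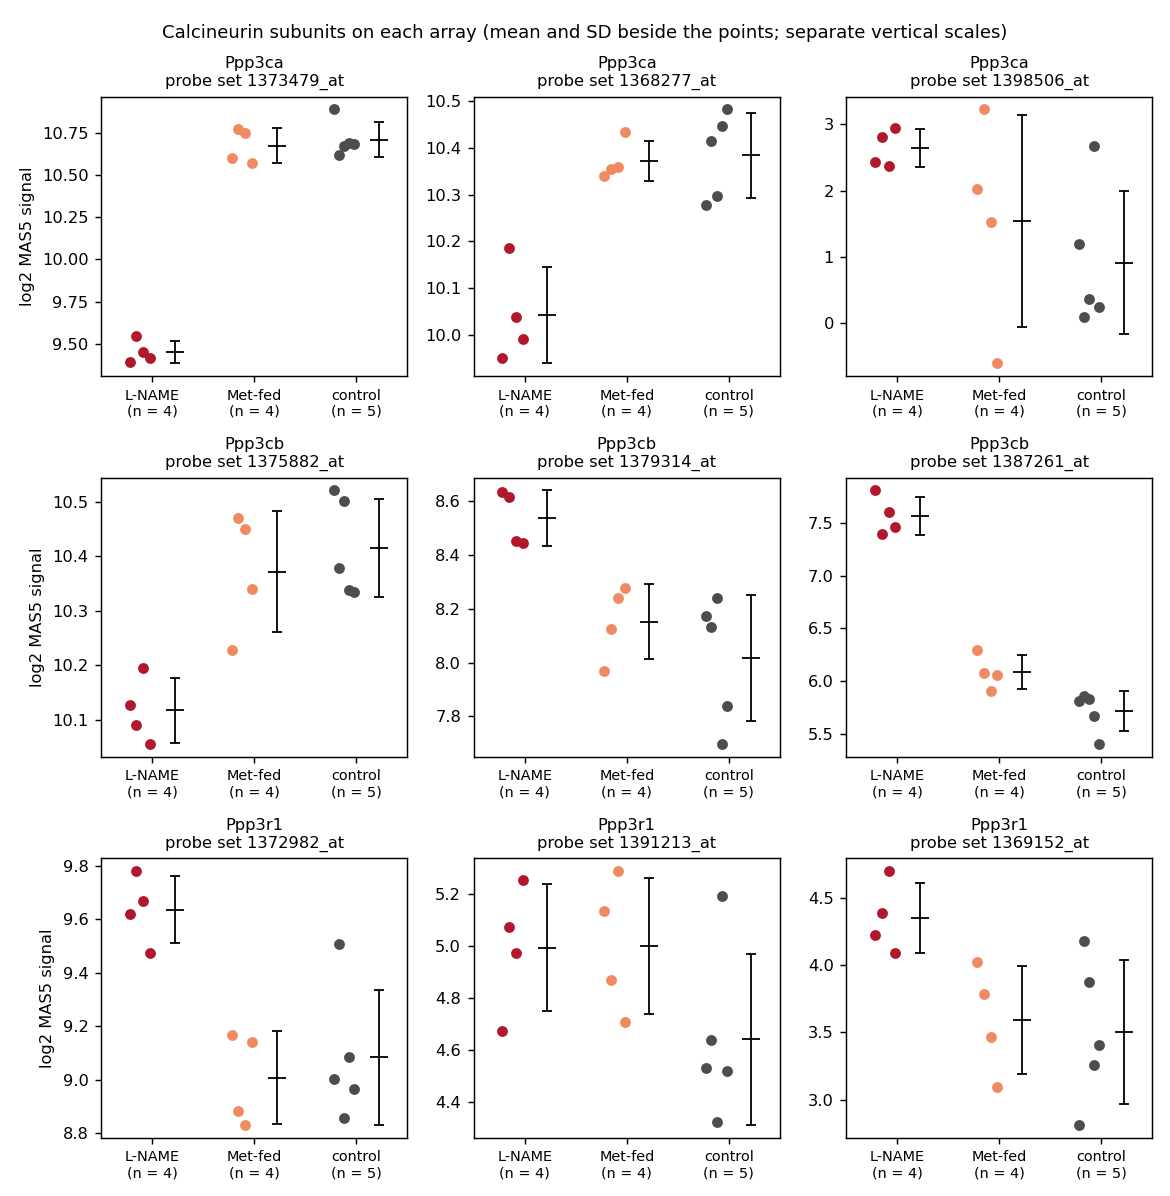
Log2 MAS5 signal of the 9 calcineurin subunit probe sets on each array (points) in L-NAME, Met-fed and control hearts, with group means and SD. The L-NAME arrays lay below all control arrays on Ppp3ca 1373479_at and above them on Ppp3cb 1387261_at, and Met-fed arrays lay within or close to the control range.

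Of the 11 probe sets other than Rcan1, 7 passed an adjusted p of 0.05 between L-NAME and control, 4 higher and 3 lower. That share of 63.6% stands beside 45.7% of all probe sets tested in this comparison, 28.7% higher and 17% lower, so a call by itself sets these genes little apart. The median log2 change of the 11 was 0.35, against 0.22 over all probe sets. Groups without overlap were found for 5 of the 11, against 40.3% of all probe sets. The calls that held under every scaling were those on Ppp3ca 1373479_at, lower, and on Ppp3cb 1387261_at, higher.

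Between Met-fed and control hearts 1 of the 12 probe sets had groups without overlap (Ppp3cb 1387261_at, higher), beside 2.89% of all probe sets and 1.34% higher. Without Rcan1, in Met-fed hearts 6 of the 11 were higher and 5 lower, with a median log2 change of 0.028 against 0.004 over all probe sets. Across all probe sets limma called 0 at adjusted p under 0.05 in this comparison and 10.7% (3319) at unadjusted p under 0.05, and the methods' t-test called 0 and 2478. Apart from Rcan1 and the dim Ppp3ca probe set, every Met-fed change of the set lay between -0.21 and 0.37. Between L-NAME and Met-fed hearts 7 of the 12 had groups without overlap, 4 higher and 3 lower, beside 39.6% of all probe sets.

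**Figure D3:**
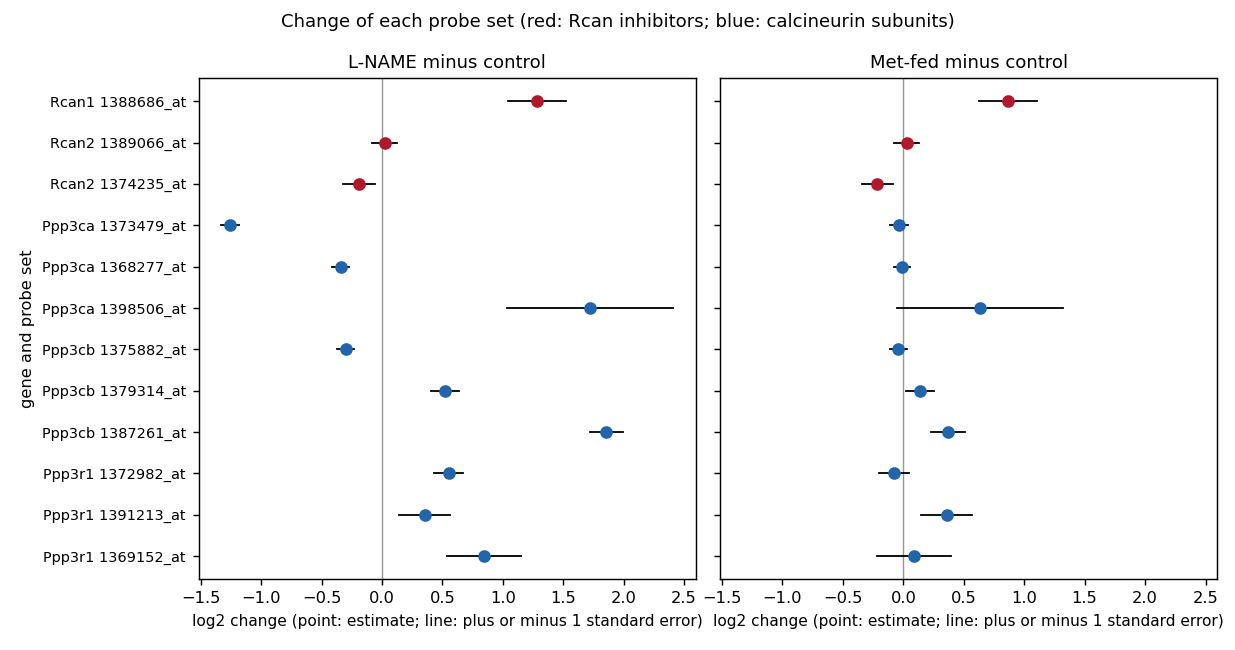
Log2 change of each of the 12 probe sets (points, with lines of 1 standard error to each side) between L-NAME and control on the left and between Met-fed and control on the right. Changes ran from -1.26 (Ppp3ca 1373479_at) to 1.86 (Ppp3cb 1387261_at) in L-NAME hearts. In Met-fed hearts Rcan1 had the largest, at 0.87, which is the change by which the set was picked.

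The genes around calcineurin were read from 4 lists, each gene by its brightest probe set. Several had further probe sets, not shown here, so each direction below is that of the brightest probe set alone. Of 64 genes measured, 33 passed between L-NAME and control, 19 higher and 14 lower, which is 51.6% beside 45.7% of all probe sets. The split was 20 higher and 14 lower after quantile normalization and 4 higher and 28 lower after median centring. Of the 33, 4 higher and 10 lower were called the same way after quantile normalization and after median centring. Between Met-fed and control 0 passed (limma, smallest adjusted p = 0.312) and 4 had an unadjusted p under 0.05, which is 6.25% beside 10.7% of all probe sets.

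Among other subunits, activators, inhibitors and anchors of calcineurin, 4 of 15 were higher and 4 lower in L-NAME hearts (median log2 change -0.16), and after median centring 0 were higher and 7 lower. Calm2, which encodes the calmodulin that switches calcineurin on, changed by -0.73 ± 0.12 (adjusted p = 9.0e-05), also under both other scalings. Akap6, an anchor that holds calcineurin at the nuclear envelope of myocytes, changed by 0.87 ± 0.17 (adjusted p = 0.00052), a call lost after median centring. Myoz3, of the calsarcin family that binds calcineurin at the Z-disc, was among the 4 counted as higher (adjusted p = 0.026), but its signal was above the bacterial controls on 2 of 4 L-NAME arrays and 0 of 5 control arrays, so no size is given, and the call was lost under both other scalings. Ppp3cc, the remaining catalytic subunit, was lower on the brighter of its 2 probe sets, with a log2 change of -0.42 ± 0.10. The call (adjusted p = 0.0035) was kept under both other scalings. In Met-fed hearts 15 of 15 did not pass, and the smallest p-values were for Fkbp8 (0.23 ± 0.12), Akap5 and Lmcd1 (0.12 ± 0.09). Akap5 was above the bacterial controls on 0 of the 4 Met-fed and 0 of the 5 control arrays, so its change is not given.

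Among NFAT factors and the kinases that phosphorylate them, 4 of 16 were higher and 0 lower in L-NAME hearts as deposited (median 0.11), 7 higher and 2 lower after quantile normalization and 2 higher and 7 lower after median centring. The 4 called as deposited were kinases, while the kinases Csnk1a1, Csnk1d, Mapk8 and Prkaca were called lower after median centring, and Csnk1a1, Csnk1d and Prkaca higher after quantile normalization. Mapk9 changed by 1.25 ± 0.14 (adjusted p = 3.1e-06) and Gsk3b by 1.18 ± 0.14 (adjusted p = 4.7e-06), both called under every scaling, and Dyrk2 by 0.71 ± 0.10 (adjusted p = 2.8e-05), lost after median centring. None of the 5 NFAT genes passed at the deposited scaling, with changes between -0.39 (Nfatc4) and 0.12 (Nfatc3), although Nfatc4 and Nfat5 passed as lower after quantile normalization and median centring and Nfatc3 after median centring. In Met-fed hearts their changes lay between -0.12 (Nfatc1) and 0.08 (Nfatc2). The smallest p-values of this list there were for Mapk14, the p38 alpha kinase (0.33 ± 0.11, unadjusted p = 0.0095, adjusted p = 0.338), Csnk1a1 (-0.11 ± 0.07) and Dyrk2 (0.14 ± 0.10).

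Among NFAT partners and genes known to follow calcineurin and NFAT, 5 of 14 were higher and 4 lower in L-NAME hearts (median -0.17), with 3 higher and 2 lower after quantile normalization and 1 higher and 5 lower after median centring. Sele, an endothelial adhesion molecule read by a dim probe set, changed by 2.00 ± 0.32 (adjusted p = 8.1e-05), and Mef2d, a muscle transcription factor, by -1.07 ± 0.14 (adjusted p = 9.5e-06), both called under every scaling. Trpc6, a calcium channel, changed by 1.58 ± 0.54 (adjusted p = 0.023) from a dim probe set, above the bacterial controls on 4 of 4 L-NAME and 4 of 5 control arrays, and lost its call under both other scalings. Gata4, the factor that works with NFAT in myocytes, changed by -0.75 ± 0.13 (adjusted p = 0.00014), kept under both. Nppa and Nppb, the natriuretic peptide genes that accompany hypertrophy, did not pass in either comparison.

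In Met-fed hearts 3 of these 14 had an unadjusted p under 0.05, beside 10.7% of all probe sets. Vcam1, an adhesion molecule of activated endothelium, changed by 0.61 ± 0.19 (unadjusted p = 0.0056, adjusted p = 0.312) and Acta1, the skeletal actin that the stressed ventricle re-expresses, by 0.38 ± 0.14 (unadjusted p = 0.019, adjusted p = 0.377). F3, which encodes tissue factor, changed by -0.45 ± 0.16 (unadjusted p = 0.014, adjusted p = 0.360). Its Met-fed and control groups did not overlap, as on 2.89% of all probe sets. In L-NAME hearts Vcam1 changed by 0.86 ± 0.19, Acta1 by 0.64 ± 0.14 and F3 by 0.65 ± 0.16 (adjusted p = 0.0014, 0.0016 and 0.0034), and after median centring none of the 3 passed. The same control arrays entered both comparisons.

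Among channels and pumps that supply calcium and other calcineurin substrates, 6 of 19 were higher and 6 lower in L-NAME hearts (median -0.04), and after median centring 1 was higher and 9 lower. Dnm1l, the GTPase of mitochondrial fission that calcineurin dephosphorylates, changed by 1.16 ± 0.12 (adjusted p = 1.2e-06). Itpr3, a calcium release channel read by a dim probe set, changed by -1.03 ± 0.25 (adjusted p = 0.0024) and Foxo3, a transcription factor, by -0.83 ± 0.10 (adjusted p = 3.9e-06). These 3 were called under every scaling. Ryr2, the release channel of the sarcoplasmic reticulum and a cardiomyocyte marker, changed by -0.63 ± 0.09 (adjusted p = 3.5e-05), also under every scaling. In Met-fed hearts 19 of 19 did not pass, and the smallest p-values were for Foxo3 (-0.18 ± 0.10), Itpr2 (-0.27 ± 0.15) and Atp2b4. The last was above the bacterial controls on 0 of the 4 Met-fed and 1 of the 5 control arrays, so its change is not given.

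**Figure D4:**
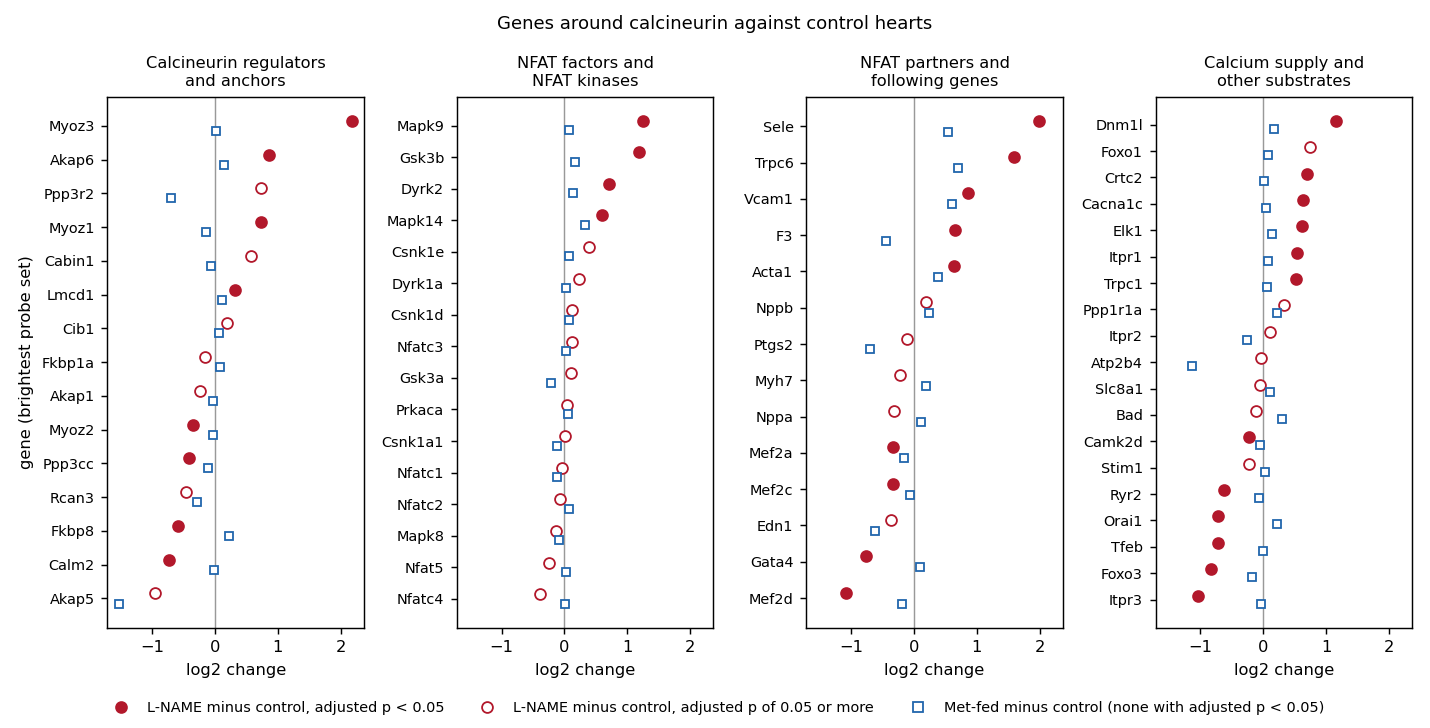
Log2 change of each of 64 genes around calcineurin, by its brightest probe set, between L-NAME and control (circles, filled at adjusted p under 0.05) and between Met-fed and control (squares), with 1 panel per list. Filled circles lie on both sides of 0 in 3 of the lists, and the 16 NFAT factors and kinases have filled circles only on the higher side as deposited, against 2 higher and 7 lower after median centring. Ppp3r2, Akap5, Myoz3 and Atp2b4 were at or below the bacterial controls on most arrays.

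The probe sets whose log2 signal was most like that of Rcan1 over the 13 arrays, among 11935 with a single symbol and at least the median signal, were those of Arl10 (Pearson's r = 0.914), Marveld1 (0.909), Rbm14 (0.907), Asap1 (0.906) and Phldb2 (0.903). These values include the differences between groups and between whole arrays. With group means taken out, the 5 most like it were Masp1 (0.931), Rcc2 (0.914), Srrd (0.885), Rps27l (0.878) and Nudt5 (0.877). The lists, each cut at 5, share no gene. Masp1 and Rps27l followed Rcan1 within groups but not across them, with r = -0.18 and 0.04 over the undivided 13 arrays. Rcc2, Srrd and Nudt5 followed it in both ways, with r = 0.88, 0.86 and 0.82 over the undivided arrays. The first 5 genes kept r of 0.70 (Marveld1) to 0.85 (Arl10) with group means taken out. Within the set, with group means taken out, Rcan1 ran against the brighter Rcan2 probe set (r = -0.67), and the 2 Rcan2 probe sets ran together (0.61). With the brightest probe sets of Ppp3ca, Ppp3cb and Ppp3r1, the r of Rcan1 was -0.14, -0.40 and -0.28. All of these r are descriptions over 13 arrays that share their array-wide signal, and none was tested.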

How the data were processed

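Left ventricular RNA of 13 pregnant rats' samples was read on Affymetrix rat genome arrays. The deposited values are linear signal intensity per probe set, which the authors computed with MAS5 (version not given in the sources used here). No further normalization was applied before log2. Of 31099 probe sets, 57 controls were left out. Gene names came from the platform annotation, and 5 of 5 members matched RefSeq (GRCr8).

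Groups came from the labels. limma 3.58.1 in R 4.3.3 fitted a mean per group to the 13 arrays together, letting the variance depend on the signal, with Benjamini-Hochberg adjustment over 31042 probe sets. The exact permutation test was 2-sided on the difference of means. Errors of changes are standard errors. A dim probe set is one under the median signal of 29.2. The number of arrays limits the precision. Known changes were tested on simulated data.

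The members and lists were chosen with earlier results of these data known. Named were all member probe sets and, per list, up to 3 genes with the largest passing L-NAME change and up to 3 with the smallest Met-fed p. Ppp3cc, Ppp3r2, Csnk1d, Mapk8, Prkaca, Gata4, Ryr2, Nppa, Nppb and the NFAT genes were named after their values were seen. Of markers, Myh6 and Tnnt2 were named. The 5 probe sets most like Rcan1 were taken by Pearson's r. Alternatives were each array left out, a replicate block, the methods' t-test, a variance without trend, only the groups compared, removal of dim probe sets, offsets of 16 and 50, median centring of arrays and quantile normalization. The variance stabilization the methods name was not used here because its settings are not stated. Figures were drawn with matplotlib 3.10.9.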

Additional observations from a re-analysis of the deposited data

Results flagged for a closer look

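Ppp3ca 1373479_at was higher in control replicate 1 than in the other control hearts, with a log2 signal of 10.89 against 10.62 to 10.69 in the other 4. Of 36 sets of values (12 probe sets in 3 groups), only this held a sample that far from the others for the range of its group. Chance flags about 1 in 20 such groups, so 1 flag among 36 is not more than chance gives.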

How the results depend on the processing

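Of the alternatives to tested values, 212 kept direction and side of the threshold, 14 lost the call, 9 gained it and 4 reversed. Of those to values without a test, 498 moved by less than 1 SD and 21 by more. The reversals were Rcan2 1389066_at in L-NAME against control, at -0.40 after median centring and -0.027 without L-NAME replicate 3 (up to 0.053 with another array left out), and Ppp3r1 1391213_at, at -0.086 after quantile normalization and -0.073 after median centring. The cause was not tested. Scaling moved the share of higher calls in L-NAME hearts to 50.1% (quantile) and 34.9% (centring), against 62.8% as deposited.

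The count of calcineurin probe sets called between L-NAME and control was 7, with 5 to 8 under the alternatives and 6 to 8 when 1 array was left out. Of all probe sets 14183 passed there, with 10399 to 14883 under the alternatives. Between Met-fed and control 0 passed, 1 with the replicate block, and 0 to 1 with 1 array left out (1 without control replicate 1, Met-fed replicate 1 or L-NAME replicate 4). At unadjusted p under 0.05 the count was 3319, 2021 with the filter at the median signal (fewer probe sets tested) and 2534 to 3740 with 1 array left out. Of the listed genes around calcineurin 4 had an unadjusted p under 0.05 there, 7 after quantile normalization, 2 with the methods' t-test, and 4 to 7 with 1 array left out (7 without control replicate 5 or Met-fed replicate 1, 2 or 3).

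The replicate numbers are in the labels of each group but did not pair the samples: over 12 pairs of the same number, deviations from the group means correlated at -0.21 to 0.24, with 2 over 0.1. With the replicate block 13149 probe sets passed between L-NAME and control, 6 of them calcineurin probe sets, and Ppp3r1 1369152_at lost its call (0.82, adjusted p = 0.057). The number of arrays and, for dim probe sets, the signal over background limit these values.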
